A study of Homo sapiens with 4 samples.

Results

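The caveolae genes are 6 genes whose products build caveolae, the flask-shaped, cholesterol-rich pits of the plasma membrane. They were taken by symbol from the 48162 genes of the deposited expression table: the caveolins CAV1 and CAV2, the cavins PTRF, SDPR and PRKCDBP, and EHD2. All 6 were found, each in 1 row, and all 6 passed the limit for testing, a mean of at least 1 FPKM (fragments counted for a gene, divided by its length in kilobases and by library size) over the libraries, which 11790 genes passed. Expression was measured by poly(A) RNA sequencing in the established breast cancer line MDA-MB-231, of triple-negative type and human origin, grown in serum-containing medium. Cells received 10 µM MGH-CP1 for 24 h (2 libraries) or vehicle for 24 h (2 libraries), and the series title names the compound as a TEAD palmitoylation inhibitor. The comparison asks which transcripts differ between exposed and vehicle cells. All libraries come from 1 cell line, and the labels do not say whether the replicates were separate cultures, so the p-values reflect library-to-library spread that could be purely technical.

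Caveolins are hairpin proteins that insert into the inner leaflet of the membrane and assemble into discs with cholesterol. Cavins are soluble coiled-coil proteins that trimerize and coat the caveolin-bearing bulb, and EHD2 is an ATPase that oligomerizes around the neck and holds the caveola at the surface. Caveolae flatten under membrane stretch and are abundant in adipocytes, endothelial cells, muscle and many mesenchymal cells.

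The caveolae genes moved in both directions with MGH-CP1. CAV1, CAV2 and SDPR fell, PRKCDBP and EHD2 rose, and PTRF did not pass the test (limma on log2(FPKM + 1), Benjamini-Hochberg adjusted p under 0.05 over all tested genes). The 3 members called lower compare with 25.1% of all tested genes called lower, and the 2 called higher with 20.0%. In either direction 45.0% of tested genes were called, so a call by itself does not set the members apart from other genes. The FPKM values of the groups did not overlap for any of the 6 members, which was also so for 74.1% of tested genes. The median log2 fold change was -0.21 over the members and -0.02 over all tested genes. Over all tested genes 2355 were called higher and 2956 lower, and both numbers were smaller when either MGH-CP1 library was left out.

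Promoters of the members that fell and of EHD2, which rose, are shown because the compound is named for TEAD factors, whose DNA motif GGAATG can be searched in them. RefSeq promoters (GRCh38.p14, from 250 bases before to 50 bases after the transcript start) were matched for CAV1, CAV2, SDPR (listed as CAVIN2) and EHD2, with 7 promoters in all, some of which overlap. Entries for PTRF and PRKCDBP were not matched. The first CAV1 promoter (chr7:116524759-116525058, plus strand), the first CAV2 promoter (chr7:116499488-116499787, plus strand), the SDPR promoter (chr2:191847039-191847338, minus strand) and the EHD2 promoter (chr19:47713172-47713471, plus strand) read as follows, 5′ to 3′ on the gene's strand, with GGAATG on either strand in capitals.
CAV1: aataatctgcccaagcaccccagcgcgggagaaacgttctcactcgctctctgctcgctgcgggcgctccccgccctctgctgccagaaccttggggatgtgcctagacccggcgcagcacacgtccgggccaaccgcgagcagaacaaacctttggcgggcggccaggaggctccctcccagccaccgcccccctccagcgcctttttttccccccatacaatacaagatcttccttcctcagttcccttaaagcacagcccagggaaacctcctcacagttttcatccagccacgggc
CAV2: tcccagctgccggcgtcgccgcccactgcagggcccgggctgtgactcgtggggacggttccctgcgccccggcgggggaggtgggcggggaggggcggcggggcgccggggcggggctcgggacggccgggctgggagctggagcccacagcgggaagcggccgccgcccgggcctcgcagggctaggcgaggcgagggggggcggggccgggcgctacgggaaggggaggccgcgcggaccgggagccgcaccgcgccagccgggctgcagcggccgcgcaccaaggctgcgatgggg
SDPR: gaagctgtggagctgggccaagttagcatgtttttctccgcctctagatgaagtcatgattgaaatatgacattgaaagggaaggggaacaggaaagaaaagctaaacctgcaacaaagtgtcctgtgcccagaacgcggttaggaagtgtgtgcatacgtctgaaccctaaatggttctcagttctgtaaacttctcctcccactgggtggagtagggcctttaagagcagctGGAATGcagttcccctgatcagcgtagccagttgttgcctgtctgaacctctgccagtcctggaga
EHD2: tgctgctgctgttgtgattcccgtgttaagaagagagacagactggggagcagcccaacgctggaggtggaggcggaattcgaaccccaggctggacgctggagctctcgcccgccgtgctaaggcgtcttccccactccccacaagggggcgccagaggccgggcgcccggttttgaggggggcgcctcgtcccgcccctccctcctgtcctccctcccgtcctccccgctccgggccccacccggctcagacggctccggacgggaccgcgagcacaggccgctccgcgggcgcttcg
The motif stood in 1 of the 7 promoters, that of SDPR, where it began 16 bases before the start on the gene's strand. It was found on either strand in 14.0% of 35116 RefSeq promoters of 300 bases. The AP-1 motif TGANTCA (7.71% of promoters) and the CArG box of SRF (1.29%) had no match in the 7, so no motif overlapped another there. A match is only a run of letters in this window, and more distant elements were not searched. The GC content was 49.3% in the SDPR promoter and 71.0% in that of EHD2, 82.7% and 71.0% in the 2 CAV2 promoters, and 62.3%, 61.7% and 71.0% in the 3 CAV1 promoters.

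CAV1, the main structural protein of caveolae outside striated muscle, was the member with the largest change. It stood at 161 and 160 FPKM in the MGH-CP1 libraries, against 249 and 274 FPKM in the vehicle libraries. Both MGH-CP1 values lay well under both vehicle values and differed from each other by less than 1 FPKM. The mean fell by 38.6%, to 160.7 ± 0.523 FPKM with MGH-CP1, against 262 ± 17.7 FPKM with vehicle (SD, n = 2 each). On the log2(FPKM + 1) scale the change was -0.70 ± 0.07 (SE; 95% interval -0.85 to -0.54; limma, adjusted p = 0.000217). Its absolute size was above that of 90.4% of tested genes. The gene (ENSG00000105974) lies at 116164839 to 116201233 of chromosome 7 on the plus strand in hg19, and its values rested on 7353 to 12457 reads. In a bulk sample, fewer cells with the transcript and less transcript per cell cannot be told apart.

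CAV2, which pairs with CAV1 in mixed oligomers and needs it to leave the Golgi, also fell, with a smaller estimate. Its level was 47.0 and 45.6 FPKM with MGH-CP1, against 54.8 and 61.8 FPKM with vehicle. The groups did not overlap, but the vehicle libraries were spread almost as far from each other as the nearest pair across groups. The means were 46.3 ± 1.01 FPKM with MGH-CP1 and 58.3 ± 4.95 FPKM with vehicle (SD, n = 2 each), with a log2 fold change of -0.32 ± 0.07 (SE; limma, adjusted p = 0.0084). With MGH-CP1 replicate 2 left out CAV2 was no longer called (limma, adjusted p = 0.0607; log2 difference -0.30), nor with no filter on low values (limma, adjusted p = 0.0589). CAV2 (ENSG00000105971; chromosome 7, 115927434 to 116148595, plus strand) ends 16244 bases before CAV1 begins.

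**Figure D1:**
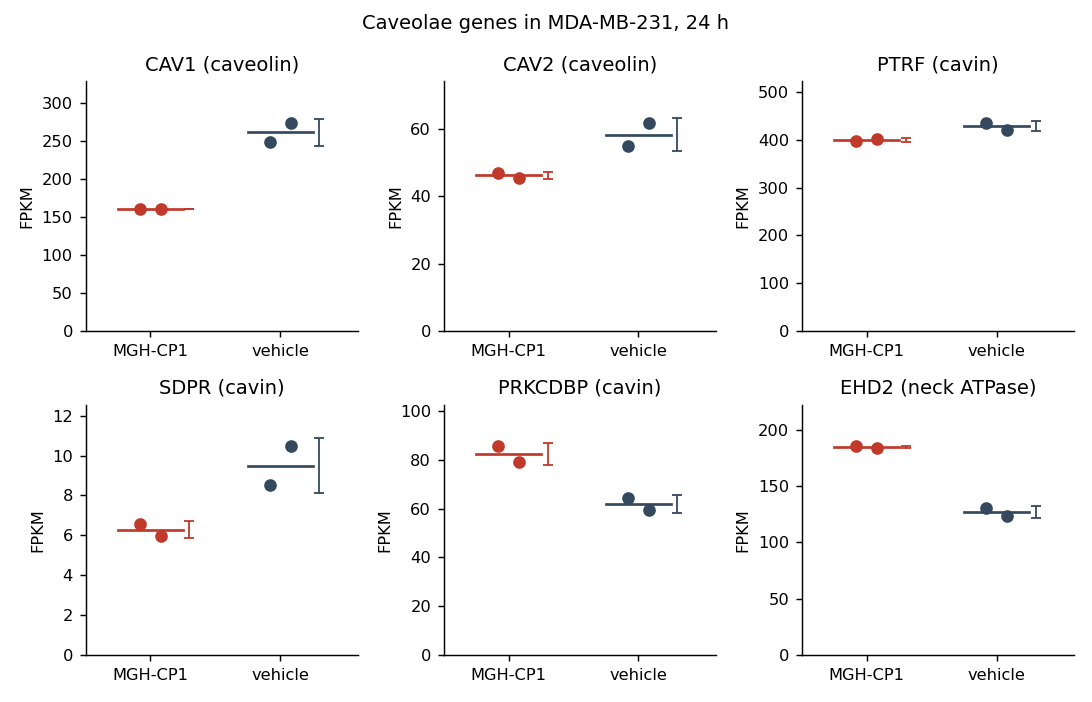
FPKM of each caveolae gene in each library, with MGH-CP1 (red) left of vehicle (blue); points are libraries, horizontal lines are group means and bars beside them are 1 SD (n = 2). CAV1, CAV2 and SDPR sit lower with MGH-CP1, PRKCDBP and EHD2 higher, and PTRF is close to 400 FPKM in all 4 libraries (397 to 436 FPKM).

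Among the cavins, each gene showed a different pattern. PTRF encodes cavin-1, the coat protein without which caveolae do not form. It had the highest level of the 6 members, above 99.3% of tested genes with MGH-CP1 and 99.5% with vehicle. PTRF measured 397 and 402 FPKM with MGH-CP1, against 436 and 421 FPKM with vehicle. The MGH-CP1 values were both the lower ones, by a margin of similar size to the gap between the vehicle libraries. The log2 difference of -0.10 ± 0.06 did not pass (SE; limma, adjusted p = 0.218), and its 95% interval ran from -0.24 to 0.04. Over the 12 alternatives the adjusted p ranged from 0.0974 to 0.558 (limma). The gene (ENSG00000177469) lies on chromosome 17 at 40554470 to 40575535, minus strand.

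SDPR encodes cavin-2, which binds phosphatidylserine and helps bend the membrane of the bulb. It was the member with the lowest level, at 6.57 and 5.97 FPKM with MGH-CP1, against 8.53 and 10.5 FPKM with vehicle. Both vehicle libraries were above both MGH-CP1 libraries, and the vehicle libraries differed from each other by about the distance between the nearest values of the groups. The mean fell by 33.9%, to 6.27 ± 0.425 FPKM with MGH-CP1, against 9.49 ± 1.37 FPKM with vehicle (SD, n = 2 each). These values rested on 367 and 327 reads with MGH-CP1 and on 509 and 567 reads with vehicle, the fewest of the members. The log2 fold change was -0.52 ± 0.11 (SE; limma, adjusted p = 0.00646). The call was lost with no filter on low values (limma, adjusted p = 0.0603). On recovered reads, where no pseudocount shrinks the change of a low gene in this way, voom gave -0.59 (adjusted p = 0.000932). SDPR (ENSG00000168497) lies on chromosome 2 at 192699028 to 192711981, minus strand.

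PRKCDBP was the only cavin gene of the 3 called higher. It encodes cavin-3, which binds protein kinase C delta and affects how caveolae traffic. Its level was 85.5 and 79.1 FPKM with MGH-CP1, against 64.6 and 59.4 FPKM with vehicle. The lower MGH-CP1 library was still above the higher vehicle library. The means were 82.3 ± 4.56 FPKM with MGH-CP1 and 62.0 ± 3.64 FPKM with vehicle (SD, n = 2 each), a ratio of 1.33. The log2 fold change was 0.40 ± 0.07 (SE; 95% interval 0.24 to 0.56; limma, adjusted p = 0.00277). PRKCDBP (ENSG00000170955) is a short gene on chromosome 11, at 6340176 to 6341877 on the minus strand, and was counted by 1171 to 1737 reads.

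EHD2, the ATPase at the caveola neck, had the largest rise of the members. It stood at 185 and 184 FPKM with MGH-CP1, against 131 and 123 FPKM with vehicle. The distance between the groups was several times the spread within either. The means were 185 ± 0.991 FPKM with MGH-CP1 and 127 ± 5.50 FPKM with vehicle (SD, n = 2 each), a ratio of 1.45. The log2 fold change was 0.54 ± 0.06 (SE; 95% interval 0.40 to 0.67; limma, adjusted p = 0.000409), above that of 83.3% of tested genes in absolute size. EHD2 (ENSG00000024422) lies on chromosome 19 at 48216600 to 48246391, plus strand.

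**Figure D2:**
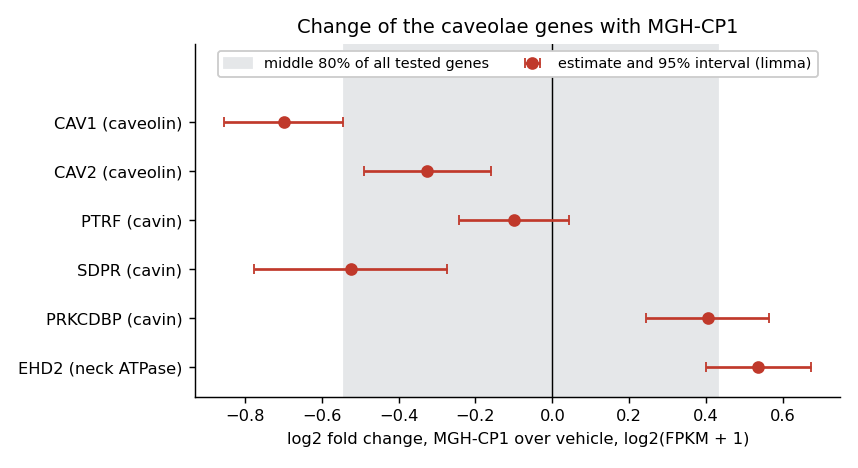
Log2 fold change of MGH-CP1 over vehicle on the log2(FPKM + 1) scale for the 6 caveolae genes, with 95% intervals from limma; the grey band holds the middle 80% of all tested genes, from -0.54 to 0.43. The CAV1 estimate (-0.70) lies below the band and that of EHD2 (0.54) above it, and the interval of PTRF crosses 0. Those of CAV2 (-0.32), PTRF (-0.10), SDPR (-0.52) and PRKCDBP (0.40) lie inside the band.

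The order of the levels per length was not the same in both groups. With MGH-CP1 it was PTRF, EHD2, CAV1, PRKCDBP, CAV2 and SDPR, and with vehicle PTRF, CAV1, EHD2, PRKCDBP, CAV2 and SDPR. CAV1 and EHD2 thus exchanged places, and their values did not overlap with each other in either group. Where a gene stands among others also rests on the length given to it, while its shift between groups does not. PRKCDBP and CAV2 were neighbours in both orders. They were far apart with MGH-CP1, while with vehicle the lower PRKCDBP value (59.4 FPKM) lay under the higher CAV2 value (61.8 FPKM).

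Ratios within a library show the shift in the make-up of the set without a scale between libraries. EHD2 over CAV1 was 1.15 and 1.15 in the MGH-CP1 libraries, against 0.525 and 0.449 in the vehicle libraries. PTRF over CAV1 was 2.47 and 2.51 with MGH-CP1, against 1.75 and 1.54 with vehicle. CAV2 over CAV1 was 0.292 and 0.284 with MGH-CP1, against 0.220 and 0.225 with vehicle. All of these were higher with MGH-CP1, so CAV1 was lower relative to CAV2, PTRF and EHD2. Within the cavins, PRKCDBP over PTRF was 0.215 and 0.197 with MGH-CP1, against 0.148 and 0.141 with vehicle. SDPR over PTRF was 0.0165 and 0.0149 with MGH-CP1, against 0.0196 and 0.0248 with vehicle. None of the ratios overlapped between groups, and the values of 74.1% of single tested genes did not overlap either. Each ratio is divided by CAV1 or by PTRF, so they are not separate observations. With 2 libraries a group an exact permutation test cannot give a two-sided p under 0.333, so these ratios are given without a test.

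**Figure D3:**
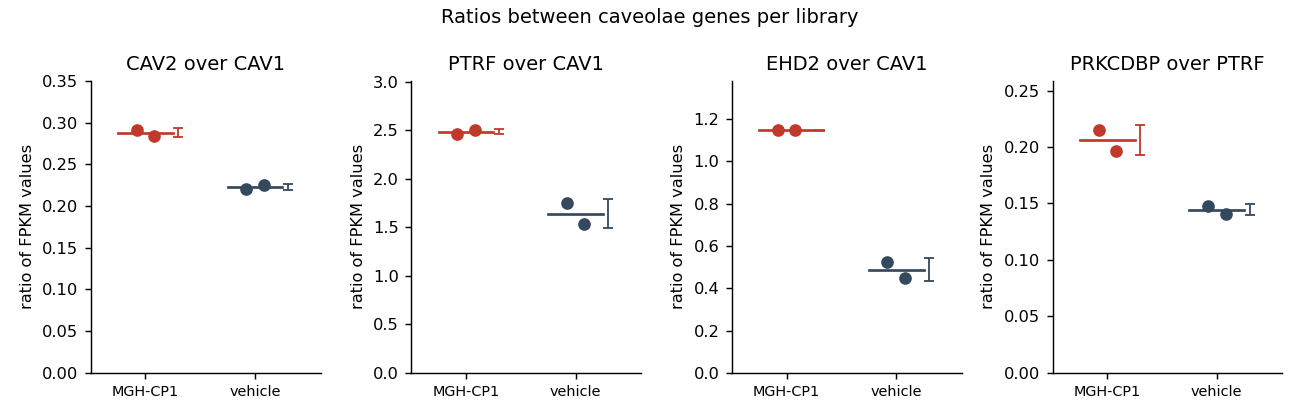
Ratios of FPKM values between caveolae genes in each library, with MGH-CP1 (red) left of vehicle (blue); points are libraries, lines are group means and bars are 1 SD (n = 2). Each of the 4 ratios is higher in both MGH-CP1 libraries, and EHD2 over CAV1 is above 1 in the MGH-CP1 libraries and at most 0.525 in the vehicle libraries. A position above or below 1 also rests on the lengths given to the genes.

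Summed over the members, the difference was small. The 6 genes together came to 883 and 877 FPKM with MGH-CP1, against 944 and 950.3 FPKM with vehicle. The caveolin sum was 208 and 206 FPKM with MGH-CP1, against 304 and 336 FPKM with vehicle, whereas the cavin sum was 489 and 487 FPKM with MGH-CP1, against 509 and 491 FPKM with vehicle. CAV1 made up 18.2% and 18.3% of the sum of the 6 with MGH-CP1, against 26.4% and 28.9% with vehicle. PTRF held a steady share, 45.0% and 45.8% with MGH-CP1 and 46.2% and 44.3% with vehicle, the only share for which the groups overlapped. The shares have a common sum, so they are not separate observations. The values of 74.1% of single tested genes did not overlap between groups.

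The nearest tested genes on either side of each member were read from the same table, on hg19. Of these 10 neighbours outside the set, 4 rose, 2 fell and 4 did not pass, where 20.0% of all tested genes rose and 25.1% fell. CAV2 and CAV1 lie side by side on 1 strand of chromosome 7, and both fell. MET, a receptor tyrosine kinase gene that begins 111211 bases after CAV1 ends, averaged 57.0 FPKM with MGH-CP1 and 69.2 FPKM with vehicle (log2 fold change -0.27 ± 0.07; limma, adjusted p = 0.0184). TES, which ends 28597 bases before the CAV2 start of that table, encodes a focal adhesion protein. It had 48.3 and 47.8 FPKM with MGH-CP1, against 44.7 and 44.4 FPKM with vehicle (limma, adjusted p = 0.146). That CAV2 start lies much farther before CAV1 than the first CAV2 promoter shown above does. The distance from TES to CAV2 thus depends on which start is taken. GLTSCR2, a nucleolar protein gene that begins 2388 bases after EHD2, rose by 0.34 ± 0.06 (log2; limma, adjusted p = 0.00361). On the other side of EHD2, GLTSCR1 did not pass (limma, adjusted p = 0.0906). PTRF, which was not called, lies between 2 genes that rose: STAT3, a transcription factor gene, by 0.19 ± 0.06 (log2; limma, adjusted p = 0.0281) and ATP6V0A1, which encodes a subunit of the vacuolar proton pump, by 0.52 ± 0.08 (log2; limma, adjusted p = 0.00162). Beside PRKCDBP, FAM160A2 rose by 0.36 ± 0.07 (log2; limma, adjusted p = 0.00672) and SMPD1, the acid sphingomyelinase gene, did not pass (limma, adjusted p = 0.0566). Beside SDPR, NABP1 did not pass (limma, adjusted p = 0.801), and SLC39A10, a zinc transporter gene 3728720 bases away, was called lower at -0.26 ± 0.08 (log2; limma, adjusted p = 0.0368). The sources do not say whether reads were counted by strand, so overlapping genes were examined. Antisense genes overlap CAV1 (AC006159.5), CAV2 (AC073130.3 and AC002066.1) and SDPR (AC098617.1), and the lincRNA CTD-2571L23.8 overlaps EHD2. The highest of these was AC002066.1 with 1.43 to 2.56 FPKM, against 45.6 FPKM or more for CAV2 itself.

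The tested genes nearest to the caveolins in pattern were found by Euclidean distance between log2(FPKM + 1) values centred on the vehicle mean, over the 4 libraries and 5750 genes of at least 10 FPKM. For CAV1 they were UTP11L (distance 0.0212), EIF1AX, a translation initiation factor gene (0.0215), and GPRC5A, an orphan receptor gene (0.0346). For CAV2 they were SMIM15 (0.0246), CUL4A, a ubiquitin ligase scaffold gene (0.0255), and NT5E, the ecto-nucleotidase CD73 (0.0289). With 4 libraries in 2 groups many genes share such a profile.

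Genes that act with the members at caveolae also moved in both directions. Of 11 listed assembly genes and partners, 8 were tested. Of these 2 rose and 4 fell, where 20.0% of all tested genes rose and 25.1% fell. The median of the 8 on the log2 scale was -0.21, beside -0.02 for all tested genes. The neck protein gene PACSIN2 had 73.8 and 71.8 FPKM with MGH-CP1, against 62.2 and 59.2 FPKM with vehicle, and rose by 0.26 ± 0.06 (log2; limma, adjusted p = 0.00883). DNM2, the fission GTPase, rose by 0.36 ± 0.05 (log2; limma, adjusted p = 0.00187). ROR1, a receptor reported to scaffold CAV1 with cavin-1, fell to 11.7 and 10.9 FPKM with MGH-CP1, against 15.6 and 16.5 FPKM with vehicle. FLNA, which ties caveolae to actin, was called lower at -0.20 ± 0.06 (log2; limma, adjusted p = 0.0357). It was not called in 5 of the 12 alternatives, where it stayed between -0.20 and -0.17, and quantile normalization gave -0.38 (limma, adjusted p = 0.00284). PACSIN3 had a log2 difference of -0.22 and did not pass (limma, adjusted p = 0.052). Of the muscle forms, CAV3 was near 0, at 0 to 0.166 FPKM. MURC, which encodes cavin-4, stood at 0.744 to 0.865 FPKM on 33 to 39 reads, under the limit for testing. PACSIN1 was near 0 too, at 0.0837 to 0.152 FPKM. PACSIN3 was called lower in 4 of the 12 alternatives. PACSIN2 was not called when MGH-CP1 replicate 1 or MGH-CP1 replicate 2 was left out (log2 fold changes of 0.24 and 0.28). Fewer genes of this list were then called, as was so over all tested genes.

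The EHD family split around EHD2. EHD1, an endocytic recycling gene that can also sit at caveolae, had 110.2 and 109.9 FPKM with MGH-CP1, against 139 and 131 FPKM with vehicle (log2 fold change -0.29 ± 0.06; limma, adjusted p = 0.0053). EHD4 had 35.7 and 35.6 FPKM with MGH-CP1, against 41.8 and 41.7 FPKM with vehicle (log2 fold change -0.22 ± 0.05; limma, adjusted p = 0.0132). EHD3 had 3.34 and 3.97 FPKM with MGH-CP1, against 2.80 and 2.72 FPKM with vehicle, and did not pass (limma, adjusted p = 0.0556). EHD2 thus stood above EHD1 in both MGH-CP1 libraries and below it in both vehicle libraries. That order also rests on the lengths given to both genes. The ratio EHD2 over EHD1 was 1.68 and 1.67 with MGH-CP1, against 0.940 and 0.938 with vehicle. EHD1 and EHD4 were no longer called when either MGH-CP1 library was left out (limma, adjusted p from 0.0501 to 0.105), with log2 fold changes of -0.30 and -0.29 for EHD1 and of -0.23 and -0.22 for EHD4, while the rise of EHD2 was called whichever library was left out. EHD3 was called higher in 4 of its 11 alternatives.

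Of 15 tested genes of receptors and enzymes described in caveolae, 8 rose and 2 fell, where 20.0% of all tested genes rose and 25.1% fell. The median was 0.28 (log2) beside -0.02 for all tested genes. The lipid receptor gene S1PR1 rose to 2.31 and 2.23 FPKM with MGH-CP1, against 0.707 and 0.799 FPKM with vehicle. Its vehicle mean of 0.753 FPKM was under the limit for testing, which it passed through the MGH-CP1 values. The vehicle values rested on 38 and 39 reads, and its log2 fold change of 0.90 was 1.59 by voom on recovered reads. With a mean of at least 5 FPKM required, S1PR1 was not tested and 7 genes of the list rose. The TGF-β receptor genes rose too, TGFBR1 by 0.60 ± 0.08 (log2; limma, adjusted p = 0.000882) and TGFBR2 by 0.55 ± 0.06 (log2; limma, adjusted p = 0.000503), as did BMPR2 by 0.53 ± 0.11 (log2; limma, adjusted p = 0.00698), although BMPR2 was not called with no filter on low values (limma, adjusted p = 0.0738). EGFR and NT5E, named after their values were seen, fell with log2 fold changes of -0.37 ± 0.07 and -0.32 ± 0.06. CD36 and PLVAP were listed at 0 in all 4 libraries. Fewer genes of this list were called when either MGH-CP1 library was left out, as was so over all tested genes.

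Among genes of other membrane entry routes, 5 of 22 clathrin coat and adaptor genes rose and 2 fell, with a median of 0.13 (log2), where 20.0% of all tested genes rose and 25.1% fell. The adaptors EPN2 and DAB2 rose by 0.57 ± 0.07 and 0.42 ± 0.09 (log2), SNX9 rose by 0.30 ± 0.07, and the light chain gene CLTB had a log2 fold change of -0.38 ± 0.05. DAB2 was not called without MGH-CP1 replicate 1 (limma, adjusted p = 0.0581), nor SNX9 without MGH-CP1 replicate 2 (limma, adjusted p = 0.0943) or with no filter on low values (limma, adjusted p = 0.0631). Fewer clathrin genes were called without either MGH-CP1 library and more without either vehicle library, as was so over all tested genes. A separate list of flotillin and stomatin family genes had 1 of 5 higher, FLOT2 (0.31 ± 0.05), and 1 lower, STOML2 (-0.41 ± 0.06). Of 7 kinases that act on or bind caveolae proteins, FYN was the 1 that fell (-0.35 ± 0.08). That call was lost without MGH-CP1 replicate 2, where the log2 fold change was -0.32. Without vehicle replicate 1 more of the kinases were called, as was so over all tested genes. In the list of caveolin turnover UBXN6, a VCP cofactor that binds CAV1, rose by 0.38 ± 0.07, and the ubiquitin-binding ANKRD13A and ANKRD13B had log2 fold changes of -0.65 ± 0.06 and -0.51 ± 0.12. ANKRD13B was not called without MGH-CP1 replicate 1 (limma, adjusted p = 0.0643) or with no filter on low values (limma, adjusted p = 0.0733). The other 6 of its 9 genes did not pass. Fewer genes of that list were called without MGH-CP1 replicate 1 and more without either vehicle library, as was so over all tested genes.

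**Figure D4:**
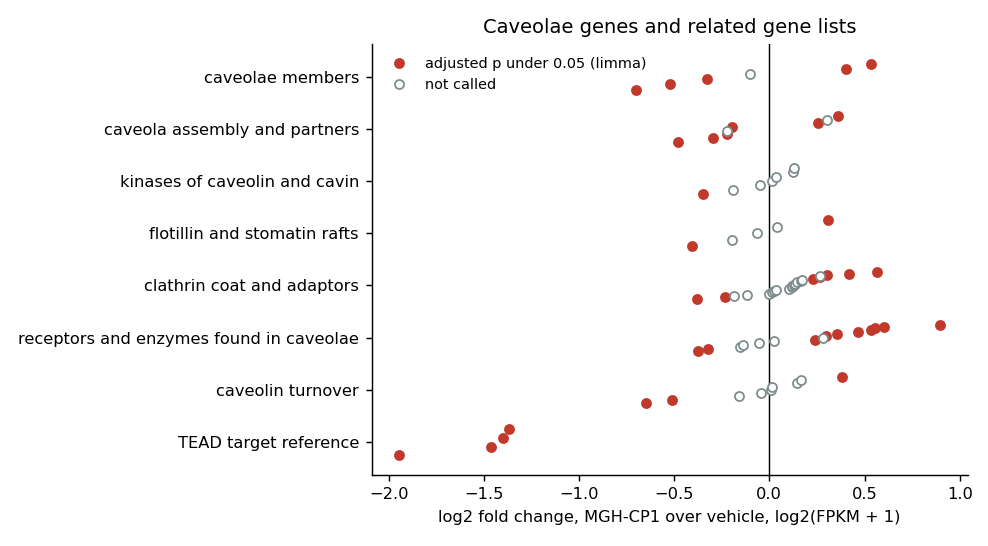
Log2 fold change of MGH-CP1 over vehicle on the log2(FPKM + 1) scale for the caveolae genes and each tested member of the related lists; filled points passed limma at an adjusted p under 0.05 and open points did not. The 6 caveolae genes spread from -0.70 to 0.54, while the 4 TEAD target genes at the bottom lie between -1.95 and -1.37.

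The estimates of the falling members lay nearer 0 than those of 4 standard TEAD target genes, a difference that was not tested. CYR61, CTGF, ANKRD1 and AMOTL2 had log2 fold changes from -1.95 to -1.37, all called, and the 95% interval of CAV1 reached down to -0.85. Depth was similar across libraries, at 16790645 to 18485701 reads summed over the table. Of the 4 markers high in this line, VIM (193 to 199 FPKM with MGH-CP1, 147 to 171 FPKM with vehicle) and CD44 (329 to 343 FPKM with MGH-CP1, 271 to 277 FPKM with vehicle) rose. AXL (279 to 297 FPKM with MGH-CP1, 546 to 559 FPKM with vehicle) and EGFR (36.3 to 39.2 FPKM with MGH-CP1, 46.8 to 51.4 FPKM with vehicle) fell. Of the markers low in it, ESR1 and PGR stood at 0 to 0.00912 FPKM and CDH1 at 0.489 to 0.895 FPKM. ERBB2 was present at 24.5 to 26.3 FPKM. Markers of other cells that carry many caveolae were near 0: the adipocyte list summed to 0.28 and 0.294 FPKM with MGH-CP1 and 0.0202 and 0.128 FPKM with vehicle, the 4 endothelial genes found to 0.516 and 0.645 FPKM with MGH-CP1 and 0.558 and 0.888 FPKM with vehicle, and the muscle list to at most 0.355 FPKM. The fibroblast list summed to 3.88 and 3.81 FPKM with MGH-CP1 and 4.16 and 3.17 FPKM with vehicle, mostly COL1A1 and PDGFRB. The immune list summed to 2.90 to 3.31 FPKM, nearly all CD14.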

How the data were processed

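RNA of 4 MDA-MB-231 libraries was measured, 2 with MGH-CP1 and 2 with vehicle. The authors deposited 1 table of FPKM values with gene coordinates and lengths. Per the submitters' processing notes, CASAVA 1.8 made the base calls and STAR aligned to hg19. Which counter and annotation were used, and whether strand was, is not given in the sources used here. The 4 sample columns of the deposited table were used, matched by name.

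Values were transformed to log2(FPKM + 1), which understates changes of low genes. Genes averaging 1 FPKM or more were tested with limma 3.58.1 in R 4.3.3, with group as the only term, a mean-variance trend and Benjamini-Hochberg adjustment. The fit was tested on simulated data whose changes were larger than that of any member, so that test does not cover changes of the members' size. FPKM times gene length gave whole multiples of 1 step per library (100% of values above 0, within 0.001), taken as reads, so that 1 read per kb equalled 0.0541 to 0.0596 FPKM. Alternatives were another pseudocount, other filters, 2 scalings, no trend, voom on these reads, a replicate block, and leaving out each library.

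Python 3.11.15 with pandas 2.3.3 and matplotlib 3.10.9 made the tables and figures. The members and lists were chosen with earlier results of these data known. Named genes are all 6 members, every gene of the assembly list, up to 4 called genes of each other list by size of change, the nearest tested gene on each side of a member with any gene overlapping it, and the 3 genes nearest in pattern to CAV1 and to CAV2. Genes at 0 and single marker genes were named after their values were seen. Promoters are from RefSeq.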

Additional observations from a re-analysis of the deposited data

How the results depend on the processing

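All 6 members kept their direction under all 12 alternatives. CAV1, PRKCDBP and EHD2 were called in each of them, with log2 fold changes from -0.77 to -0.63, from 0.34 to 0.46 and from 0.49 to 0.58. PTRF was called in none (-0.12 to -0.08). With no filter on low values more genes were tested (24640), and 1 member was called lower in place of 3. Over all genes 1568 were then called higher in place of 2355, and 2033 lower in place of 2956. When 1 library was left out, 1450 to 2554 genes were called higher, and 2 to 3 members were called lower and 2 higher. A lone library in a group is then assumed to vary like the other group. The replicate numbers are not said to mark a culture or day, and deviations of same-numbered libraries from their group means had a correlation of 0.05 across genes. With the replicate block 2453 genes were called higher and 3036 lower, and the members' calls were the same, 2 higher and 3 lower. Median-of-ratios scaling gave 2574 higher and 2756 lower genes, and quantile normalization 2803 and 2590. SDPR, at 327 to 567 reads per library, is the member whose estimate the depth limits most.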
